A study of Mus musculus with 4 samples.

Results

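The 10 genes described here encode enzymes that make, lengthen and desaturate fatty acids and store them as triglyceride: Acly, Acaca, Fasn, Elovl1, Elovl5, Scd1, Scd2, Fads1, Fads2 and Dgat2. They were taken by gene name from the deposited tables, where all 10 were found among 54532 genes. The tables hold RNA sequencing of PMN-MDSC (polymorphonuclear myeloid-derived suppressor cells), a population that resembles neutrophils and dampens T cells, from the spleen of newborn C57BL/6 mice. The groups are NECA, an agonist of adenosine receptors, and its solvent DMSO, and the labels state a treatment of 5 days. There were 2 NECA libraries and 2 DMSO libraries, each labelled as replicate 1 or 2, and 300000 cells of each condition were lysed. The labels give no genetic change, no NECA concentration, no sex and no number or pooling of pups. They do not say whether replicates came from separate animals or cultures, so p-values measure only the spread between these libraries, which may be technical.

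Fatty acid synthesis starts from citrate that leaves the mitochondrion. Acly splits it into acetyl-CoA, Acaca carboxylates this to malonyl-CoA, and Fasn joins the units into palmitate, a saturated fatty acid. Elongases of the Elovl family lengthen the chain, stearoyl-CoA desaturases (Scd) turn saturated into monounsaturated fatty acids such as oleate, and Fads1 and Fads2 desaturate polyunsaturated fatty acids on the way to arachidonate, the precursor of leukotrienes and prostaglandins. Dgat2 catalyses the last step of triglyceride synthesis, and the product is kept in lipid droplets, whose coat includes Plin2. Many of these genes are targets of the SREBP transcription factors, encoded by Srebf1 and Srebf2, and of the liver X receptors, encoded by Nr1h2 and Nr1h3.

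The desaturase Scd2 was higher with NECA. It was the 1 of 9 tested members that passed the test over all genes, and 0 members were lower (DESeq2 called 2 higher and 0 lower). Its paralogue Scd1, together with Fasn and Fads1, had its lower values in the NECA libraries without passing, and Dgat2 had its higher values there, also without passing. Acly, Acaca, Elovl1 and Elovl5 overlapped between the groups. Over all 13083 genes tested, 1.33% were called (0.352% higher and 0.978% lower) at an adjusted p under 0.05 in edgeR's quasi-likelihood test. Higher genes made up 26.4% of these calls, against 8.82% with library size alone as the scaling and 53.4% in DESeq2. With no filter on low counts, Scd1 (adjusted p = 7.44e-09), Fasn (0.000104), Fads1 (0.0237) and Dgat2 (0.00526) also passed. Scd1 had the same counts in that fit (130 and 9 with NECA), but its SE was 0.23 instead of 0.57. Its p there thus does not rest on a smaller spread between the NECA libraries. The median log2 fold change of NECA over DMSO was -0.004 over the 9 tested members and -0.007 over all genes tested. At an unadjusted p under 0.05, 5 of the 9 members passed, beside 15.7% of all genes. The members were chosen with earlier results of these data known, so their share is no independent comparison. The libraries of the groups did not overlap for 5 of the 9 (2 with NECA above, 3 with NECA below), which holds for 46.7% of all genes tested (22.4% with NECA above and 24.3% with NECA below). The remaining member, Fads2, was too low to test.

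Depth was 15864120 to 18712625 counts per library. All 15 neutrophil markers listed had enough counts to be tested. Levels are given as CPM (counts scaled to a common depth, on library sizes adjusted by TMM). The summed level of these markers was 138000 and 139000 CPM in NECA replicates 1 and 2 and 124000 and 129000 CPM in DMSO replicates 1 and 2. Of the 15 markers, 2 rose (Mmp8 and Mmp9), 0 fell and 13 did not pass. The 2 with log2 fold changes below 0, Elane (-0.69) and Mpo (-1.19), were low. Elane had 2.31 and 1.23 CPM with NECA and 1.72 and 4.04 CPM with DMSO. Mpo had 6.15 and 3.49 CPM with NECA and 6.79 and 15.4 CPM with DMSO. Summed markers of other cells were at lower levels than the neutrophil sum and differed between libraries. Of 20 monocyte and macrophage markers, 0 rose, 12 fell and 8 did not pass (median log2 fold change -1.38); the complement gene C1qa had 272 and 155 counts with NECA and 830 and 668 counts with DMSO. Summed B cell markers stood at 146 and 30.8 CPM with NECA and 252 and 272 CPM with DMSO, and summed erythroid markers at 340 and 19.4 CPM with NECA and 1180 and 485 CPM with DMSO. In such bulk libraries, fewer cells of a type and less RNA per cell cannot be told apart.

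Levels of different genes were compared per length, as the deposited FPKM (fragments per kilobase of transcript, scaled to depth). Dgat2 was the most abundant member, at 111 and 111 FPKM with NECA and 92.8 and 95.7 FPKM with DMSO. Acly followed, at 56.9 and 54.1 FPKM with NECA and 53.8 and 54.4 FPKM with DMSO, then Elovl1 at 35.5 and 37.4 FPKM with NECA and 34.5 and 38.6 FPKM with DMSO. The first 3 places in this order did not overlap in any library. Elovl5 (11.3 and 11.4 FPKM with NECA, 10.4 and 11.8 FPKM with DMSO) and Scd2 (12.5 and 12.2 FPKM with NECA, 8.66 and 8.86 FPKM with DMSO) came next and changed places: Scd2 was above Elovl5 in both NECA libraries and below it in both DMSO libraries. The mean of Scd1 over the 4 libraries was 1.59 FPKM, and those of Fasn, Fads1, Acaca and Fads2 were 0.858, 0.495, 0.454 and 0.191 FPKM. The order of these 5 was the same in both DMSO libraries and different in each NECA library. The lengths behind the deposited FPKM were close to the annotated exon lengths (0.988 to 1.04 of them, relative to the median gene) for 8 members but 0.738 of them for Fads1 and 0.465 for Fads2, so the places of these 2 depend on the annotation used.

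**Figure D1:**
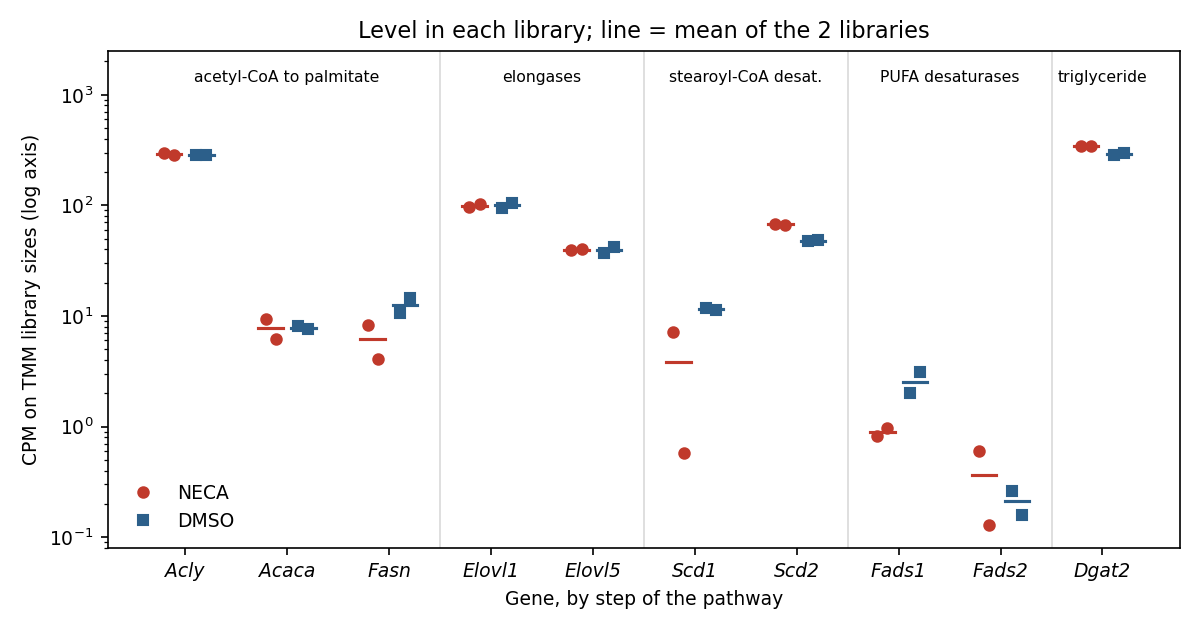
Level of each of the 10 genes in each library, in CPM on TMM-scaled library sizes (log axis), ordered by step of the pathway, with NECA as red circles, DMSO as blue squares and a line at the mean of 2 libraries. Scd2 and Dgat2 are above DMSO in both NECA libraries, Scd1, Fasn and Fads1 are below it in both, and NECA replicate 2 of Scd1 stands alone at 0.582 CPM.

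Scd1 and Scd2 lie in a cluster of Scd genes on chromosome 19 and encode closely related enzymes. Scd2 (ENSMUSG00000025203, GRCm38 chr19:44293674-44306864, plus strand) and Scd1 (ENSMUSG00000037071, chr19:44394455-44407879, minus strand) were 90.3% identical over 1065 aligned coding bases in GENCODE M21 transcripts. The longest run without a difference was 147 bases. Only the coding bases were aligned, 1074 for Scd2 and 1065 for Scd1, beside 5464 and 4892 annotated exon bases. The least alike stretch of 90 aligned coding bases within 1 exon shows where coding reads can be told apart. Its 30 differing bases are in capitals (chr19:44294963-44295052 for Scd2, chr19:44406621-44406710 for Scd1).
Scd2: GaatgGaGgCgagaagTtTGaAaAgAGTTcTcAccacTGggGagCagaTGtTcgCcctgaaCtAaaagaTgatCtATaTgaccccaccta
Scd1: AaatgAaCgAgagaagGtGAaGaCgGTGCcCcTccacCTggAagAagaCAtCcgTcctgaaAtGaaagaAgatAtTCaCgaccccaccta
A stretch of the same length has 0 differences and is shown as the part that cannot separate them (chr19:44299702-44299791 for Scd2, chr19:44401716-44401805 for Scd1).
Scd2 and Scd1: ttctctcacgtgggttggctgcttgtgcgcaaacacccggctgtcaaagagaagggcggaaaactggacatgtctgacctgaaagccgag
Reads that fall within such a stretch cannot be assigned by sequence alone, and the authors' treatment of reads that match several genes is not given in the sources used here. Counts of both genes are therefore uncertain where they share sequence. The neighbours Scd3 (4 and 0 counts with NECA, 0 and 0 with DMSO) and Scd4 (5 and 2 counts with NECA, 1 and 2 with DMSO) were close to 0.

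Scd2 had 68.3 and 66.1 CPM in the NECA libraries, against 47.3 and 48.5 CPM in the DMSO libraries. Both NECA values were above both DMSO values, and the replicates of a group differed by far less than the groups. The mean was 67.2 ± 1.57 CPM with NECA and 47.9 ± 0.813 CPM with DMSO (SD, n = 2 each). The log2 fold change was 0.49 (SE 0.08, adjusted p = 0.0101 in edgeR's quasi-likelihood test), which is 1.40-fold. Without DMSO replicate 1 the value was 0.48 and the call was lost (adjusted p = 0.0814), whereas leaving out each of the other 3 libraries kept it (adjusted p of 0.000605 to 0.038). In each such fit 1 group holds 1 library, which is assumed to vary like the other group.

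Scd1 had 130 and 9 counts in NECA replicates 1 and 2, against 228 and 212 counts in DMSO replicates 1 and 2, or 7.14 and 0.582 CPM against 11.9 and 11.3 CPM. Both NECA libraries were below both DMSO libraries, but the NECA replicates were far apart, at 61.6% and 5.02% of the DMSO mean. The 9 counts carry a 95% exact Poisson interval of 0.266 to 1.10 CPM (counting error only), which does not reach the interval of NECA replicate 1 (5.97 to 8.48 CPM). In DESeq2 the log2 fold change of Scd1 was -1.58 with a larger SE of 1.42 (adjusted p = 0.893). In edgeR the log2 fold change was -1.54 (SE 0.57, adjusted p = 0.205) with a 95% interval of -2.78 to -0.30. With NECA replicate 1 left out it was -4.30 (adjusted p = 1.41e-22), and with NECA replicate 2 left out -0.70 (adjusted p = 0.127), so its size rests on NECA replicate 2. These p-values leave out the spread between the NECA libraries, since 1 NECA library is set against the DMSO libraries.

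The balance of the stearoyl-CoA desaturases leaned further towards Scd2 in both NECA libraries, but by very unlike amounts. The ratio of Scd2 to Scd1 in deposited FPKM was 8.49 and 101 in NECA replicates 1 and 2, against 3.52 and 3.82 in DMSO replicates 1 and 2. All 4 libraries held more Scd2 than Scd1, and both NECA ratios were above both DMSO ratios. The mean log2 ratio was 4.87 with NECA and 1.88 with DMSO, a difference of 3.0. That difference became 4.78 when NECA replicate 1 was left out and 1.21 when NECA replicate 2 was. The NECA libraries, with log2 ratios of 3.09 and 6.66, lay further apart than the group means. The ratio of NECA replicate 2 rests on 9 Scd1 counts. An exact two-sided permutation test of 2 libraries against 2 cannot go below 0.333, so no p is given.

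At the start of the pathway, Acly, the source of cytosolic acetyl-CoA, had 300 and 285 CPM with NECA and 285 and 288 CPM with DMSO. The groups overlapped, and with 4406 to 5467 counts per library the 95% interval of the log2 fold change was -0.09 to 0.15. Acaca, which makes malonyl-CoA, had 9.34 and 6.14 CPM with NECA and 8.05 and 7.54 CPM with DMSO. Here the NECA libraries lay on either side of the DMSO libraries, and the interval of -0.51 to 0.50 was wide. Acaca shares 663 bases with the annotated gene Gm5182, so its counts are uncertain.

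Fasn, the synthase that makes palmitate, had 8.29 and 4.07 CPM in NECA replicates 1 and 2, against 10.7 and 14.6 CPM in DMSO replicates 1 and 2. Both NECA libraries were below both DMSO libraries, with NECA replicate 2 the lower. The log2 fold change was -1.02 (SE 0.28, adjusted p = 0.102) with a 95% interval of -1.63 to -0.40. With NECA replicate 1 left out the value was -1.63 (adjusted p = 3.7e-07), and -0.61 with NECA replicate 2 left out (adjusted p = 0.192), again with 1 NECA library and no spread between NECA libraries in the p.

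Of the elongases, Elovl1, which acts on saturated and monounsaturated very long chains, had 96.7 and 102 CPM with NECA and 94.4 and 105 CPM with DMSO. Elovl5, which acts on polyunsaturated chains, had 39.8 and 39.9 CPM with NECA and 36.8 and 41.6 CPM with DMSO. In both genes the NECA libraries lay between the DMSO libraries. The 95% intervals of the log2 fold changes were -0.17 to 0.15 for Elovl1 and -0.18 to 0.23 for Elovl5. The FPKM ratio of Elovl5 to Elovl1 was 0.318 and 0.303 with NECA and 0.302 and 0.305 with DMSO. An exon of Elovl1 overlaps Cdc20 on the opposite strand, and whether counting used strand is not given in the sources used here.

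Fads1 and Fads2, the desaturases of polyunsaturated fatty acids, were at the low end of the tables. Fads1 had 15 and 15 counts with NECA and 38 and 58 counts with DMSO, or 0.824 and 0.969 CPM against 1.99 and 3.08 CPM. Both NECA libraries were below both DMSO libraries, and here the NECA replicates were close together, at 32.5% and 38.3% of the DMSO mean. The log2 fold change was -1.5 (SE 0.45, adjusted p = 0.121) with a 95% interval of -2.47 to -0.52. It did not pass without any 1 of the 4 libraries (values of -1.14 to -1.77). Fads2 had 11 and 2 counts with NECA and 5 and 3 counts with DMSO, where a difference was not detectable at this depth. The FPKM ratio of Fads2 to Fads1 rests on these counts and was 1.68 and 0.306 with NECA and 0.302 and 0.119 with DMSO.

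Dgat2, which adds the last fatty acid to make triglyceride, had 341 and 341 CPM in the NECA libraries, against 287 and 296 CPM in the DMSO libraries. Both NECA values were above both DMSO values, and the NECA replicates were alike. The log2 fold change was 0.23 (SE 0.05, adjusted p = 0.063) with a 95% interval of 0.11 to 0.34, or 1.17-fold. The gene passed in DESeq2 (adjusted p = 0.00885), and also without NECA replicate 1 (adjusted p = 0.0305), where the remaining NECA library is assumed to vary like the DMSO libraries. Its p was above the threshold without each of the other 3 libraries (adjusted p of 0.0591 to 0.209), and its value was 0.15 on library size alone (adjusted p = 0.176). Dgat1, the unrelated enzyme that catalyses the same step, had 658 and 706 CPM with NECA and 646 and 665 CPM with DMSO (log2 fold change 0.06, adjusted p = 0.672). Per length it was the more abundant of the pair, at 215 and 232 FPKM with NECA and 211 and 217 FPKM with DMSO.

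**Figure D2:**
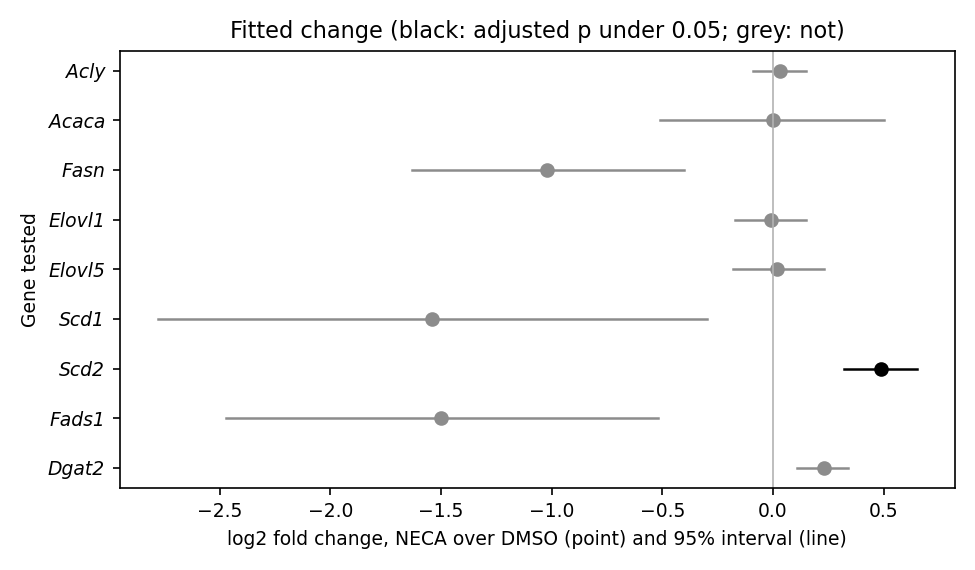
Fitted log2 fold change of NECA over DMSO (points) with its 95% interval (lines) for the 9 tested genes, black where the adjusted p is under 0.05 and grey where it is not. Scd2 at 0.49 is the black point, and the edgeR intervals of Scd1, Fads1 and Fasn lie below 0 but are wide.

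The genes with low values in the NECA libraries were set beside the markers of other cells. As a percentage of the DMSO mean in NECA replicates 1 and 2, Scd1 stood at 61.6% and 5.02%, Fasn at 65.6% and 32.2%, and Fads1 at 32.5% and 38.3%. The summed B cell markers stood at 55.8% and 11.8%, and the erythroid markers at 40.8% and 2.34%. The summed monocyte and macrophage markers stood at 75.4% and 68.3%, and the T and NK cell markers at 63.1% and 65.6%. Ly6c2 was the largest part of the monocyte and macrophage sum (582 and 575 CPM with NECA, 522 and 549 CPM with DMSO). Cd3d was the largest part of the T and NK cell sum (13.8 and 15.6 CPM with NECA, 15.8 and 19.4 CPM with DMSO). The median log2 fold change was -1.38 over the tested monocyte and macrophage markers and -1.51 over the tested T and NK cell markers. Scd1 and Fasn were thus lowest in the library in which the B cell and erythroid markers were lowest, whereas Fads1 was about equally low in both NECA libraries. All 10 tested B cell markers and all 9 tested erythroid markers had log2 fold changes below 0, as did 19 of 20 monocyte and macrophage markers and all 4 tested T and NK cell markers. The B cell factor Ebf1 had 25 and 0 counts with NECA and 40 and 39 counts with DMSO. Of the T and NK cell markers, Cd3d had 252 and 242 counts with NECA and 303 and 365 counts with DMSO. Cd3e, Klrb1c and Ncr1 had 0 counts in both NECA libraries and were also low with DMSO, at 15 and 6, 3 and 9, and 6 and 0 counts. The part of these cells in the values of Scd1, Fasn and Fads1 was not tested. The summed neutrophil markers stood at 109% and 110% of the DMSO mean in the NECA libraries. Scd2 stood at 143% and 138% there, and Dgat2 at 117% and 117%. Single neutrophil markers varied: S100a8, Mmp8 and Mmp9 were 1.17-fold with NECA, as was Dgat2, and Retnlg 1.29-fold. Ngp was 1.02-fold and Camp 1.04-fold. Of the 15 markers, 13 had log2 fold changes above 0 and 2 below. The part of neutrophils in the values of Scd2 and Dgat2 was not tested. Of the 10 adipocyte markers, Adipoq, Lep, Plin1 and Cidec had 0 counts in all 4 libraries. Of the others, Lipe had 878 and 732 counts with NECA and 873 and 878 counts with DMSO, Retn 22 and 28 with NECA and 32 and 27 with DMSO, and Pparg, which macrophages also express, 30 and 15 with NECA and 87 and 65 with DMSO. Fabp4, Cfd and Ucp1 had 6 counts or fewer in each library.

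**Figure D3:**
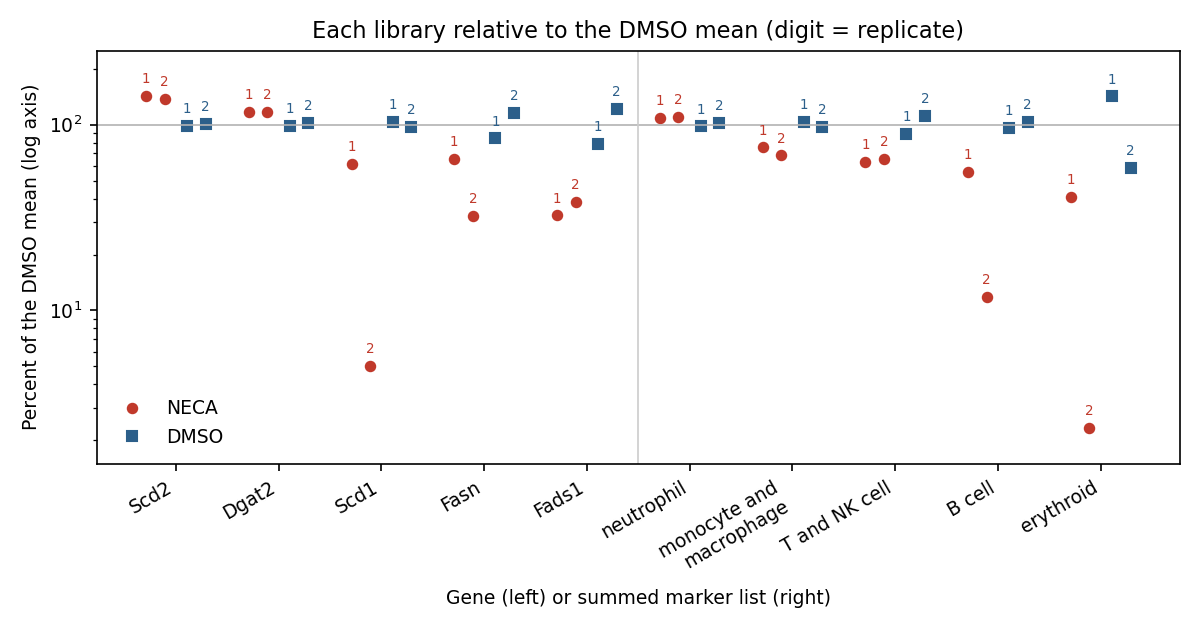
Level in each library as a percentage of the DMSO mean (log axis), for 5 genes on the left and for the summed CPM of 5 marker lists on the right, with NECA as red circles, DMSO as blue squares and the replicate number above each point. NECA replicate 2 is lowest for Scd1 (5.02%), for the B cell markers (11.8%) and for the erythroid markers (2.34%), while Scd2, Dgat2 and the neutrophil markers are above 100% in both NECA libraries.

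Of 107 other genes of the pathway on 5 lists, 81 were tested, 1 rose (Plin2) and 2 fell (Agpat3 and Srebf2). Over all 13083 genes tested, 0.352% rose and 0.978% fell. Plin2, the lipid droplet coat protein, had 200 and 214 CPM with NECA and 158 and 165 CPM with DMSO. Both NECA values were above both DMSO values (log2 fold change 0.35, SE 0.06, adjusted p = 0.0177). Agpat3, which acylates lysophosphatidic acid on the way to phospholipids and triglyceride, had 3.68 and 3.23 CPM with NECA and 7.0 and 8.98 CPM with DMSO (-1.20, SE 0.24, adjusted p = 0.037). An exon of Agpat3 overlaps the opposite-strand gene Gm40709, but no shared stretch of 50 bases or more was found. Srebf2, the SREBP known mainly for cholesterol synthesis genes, had 143 and 120 CPM with NECA and 182 and 181 CPM with DMSO (-0.46, SE 0.08, adjusted p = 0.0148). All 3 calls were lost without DMSO replicate 1 (adjusted p = 0.0967 for Agpat3, 0.105 for Srebf2 and 0.131 for Plin2) and without DMSO replicate 2 (adjusted p = 0.2 for Agpat3, 0.0759 for Srebf2 and 0.066 for Plin2).

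Among the 14 tested genes of lipid droplets and lipolysis, 1 rose, 0 fell and 13 did not pass. Their median log2 fold change was 0.11, beside -0.007 over all genes and 0.135 over the neutrophil markers. After Plin2, the smallest p-values belonged to Abhd5, the co-activator of the triglyceride lipase Pnpla2 (173 and 172 CPM with NECA, 151 and 147 CPM with DMSO, adjusted p = 0.104), and to the monoglyceride lipase Mgll (111 and 110 CPM with NECA, 98.7 and 91.8 CPM with DMSO, adjusted p = 0.136). Both overlap annotated opposite-strand genes. Pnpla2 itself had 76.7 and 80.3 CPM with NECA and 76.8 and 79.4 CPM with DMSO. Of the 13 tested genes of triglyceride assembly, 0 rose, 1 fell and 12 did not pass (median -0.05). Besides Agpat3 these were led by the phosphatidate phosphatase Lpin1, with 0.934 and 1.03 CPM with NECA and 2.46 and 3.19 CPM with DMSO (adjusted p = 0.0923). Next was Gpat3, a glycerol-phosphate acyltransferase whose counts are uncertain beside overlapping genes, with 19.2 and 20.8 CPM with NECA and 15.4 and 14.4 CPM with DMSO (adjusted p = 0.147). Lpin1 was low and Gpat3 high in both NECA libraries, each without overlap, which holds for 46.7% of all genes tested.

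Of the 24 tested other genes of synthesis and elongation, 0 were called by edgeR over all genes and by DESeq2, with a median of -0.004. Beside 15.7% of all genes tested, 3 of the 24 had an unadjusted p under 0.05. These were Hacd3, a dehydratase of the elongation cycle (1.26 and 1.36 CPM with NECA, 2.66 and 3.82 CPM with DMSO, adjusted p = 0.112), the mitochondrial acetyl-CoA synthetase Acss1 (5.27 and 2.07 CPM with NECA, 7.73 and 8.18 CPM with DMSO, adjusted p = 0.129) and the elongation reductase Hsd17b12 (9.34 and 8.85 CPM with NECA, 14.0 and 10.6 CPM with DMSO, adjusted p = 0.29). All 3 had both NECA libraries below both DMSO libraries, as had 24.3% of all genes tested. Of the 6 tested genes of desaturation, 0 were called by either tool and 1 had an unadjusted p under 0.05, beside the same 15.7%. It was the cytochrome b5 reductase Cyb5r3, which passes electrons towards the desaturases. It had 17.2 and 14.2 CPM with NECA and 20.9 and 23.6 CPM with DMSO (adjusted p = 0.112), and shares 243 bases with an overlapping gene. The next of that list were Cyb5b (38.3 and 35.2 CPM with NECA, 42.2 and 41.7 CPM with DMSO) and Cyb5r1 (111 and 108 CPM with NECA, 98.2 and 104 CPM with DMSO).

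Of 24 tested regulators, 0 rose, 1 fell (Srebf2) and 23 did not pass, with a median of -0.002. Srebf1, the SREBP known mainly for fatty acid synthesis genes, had 45.3 and 44.7 CPM with NECA and 47.2 and 47.0 CPM with DMSO (log2 fold change -0.07, adjusted p = 0.769). Pparg, a nuclear receptor of lipid storage that macrophages also express, had 1.65 and 0.969 CPM with NECA and 4.55 and 3.45 CPM with DMSO (adjusted p = 0.0654). Nr1h3, the liver X receptor that is abundant in macrophages, had 1.92 and 1.94 CPM with NECA and 4.34 and 4.46 CPM with DMSO (adjusted p = 0.0844), beside 147 and 138 CPM with NECA and 150 and 150 CPM with DMSO for Nr1h2 (adjusted p = 0.64). Pparg and Nr1h3 were low in both NECA libraries, where 12 of 20 monocyte and macrophage markers were also called lower. The part of macrophages in these values was not tested.

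**Figure D4:**
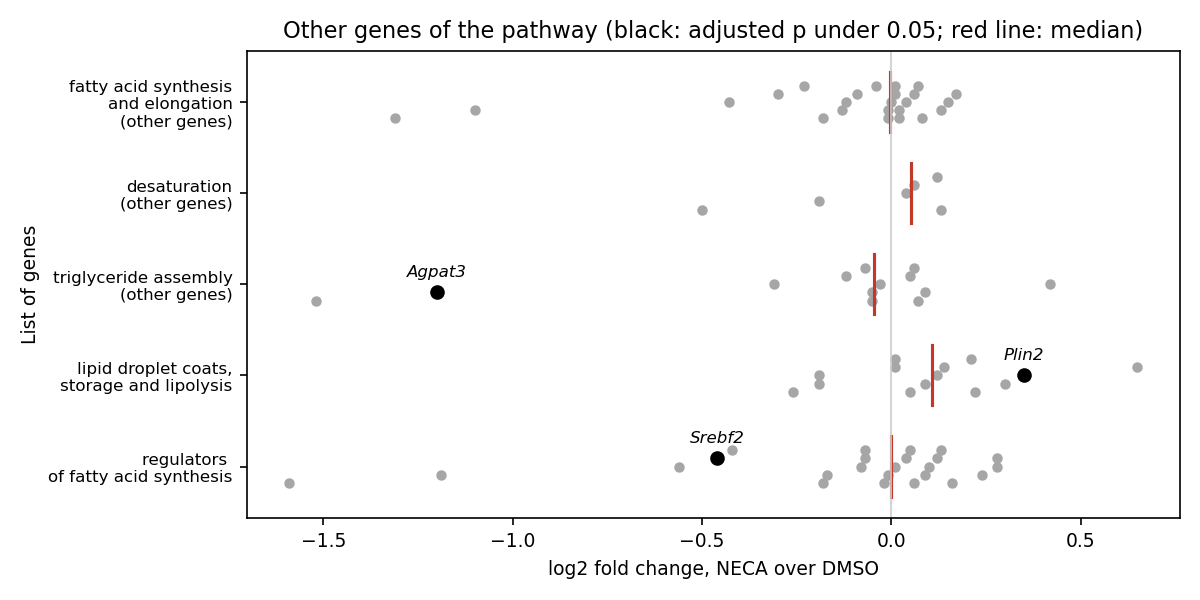
Log2 fold change of NECA over DMSO for the tested genes of 5 lists of other pathway genes, with called genes in black and named, the others in grey and a red line at each list's median. The medians lie between -0.05 and 0.11, Plin2 is the called gene to the right of 0, and Agpat3 and Srebf2 are those to its left.

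RefSeq promoter windows (GRCm38.p6) were at hand for 6 of the 10 genes: Acaca, Acly, Elovl1, Elovl5, Fads2 and Fasn, with 7 windows in all. The others were Dgat2, Fads1, Scd1 and Scd2. Some windows lie inside the gene as annotated in GENCODE. The Acaca window (chr11:84195188-84195437) follows the gene's start at 84129672, and an Elovl1 window (chr4:118429451-118429700) follows the start at 118428093. The Fads2 window (chr19:10101504-10101753, minus strand) reaches into the gene, which ends at 10101746. A motif absent from these windows may still lie before the gene's first annotated base. In the 250 bases before the start, both strands were searched for CACGTG, the E-box that SREBP and USF factors can bind, for CCAAT, the NF-Y box known to work beside SREBP sites, for TCACCCCAC, a sterol regulatory element core, for the cAMP response element TGACGTCA, and for the DR4 repeat known for liver X receptors. CCAAT was in windows of Fasn, Elovl1 and Elovl5 (3 of 7 windows, beside 33.8% of 32851 windows of the same length), and CACGTG in that of Elovl5 (1 of 7, beside 6.02%). The other motifs were in 0 of 7 windows, beside 0.496%, 1.55% and 0.0152% of all windows in the order named. The windows of Fasn, whose NECA libraries were both low, and Elovl5, whose groups overlapped, are shown because both hold CCAAT. Capitals mark the E-box and the NF-Y box on either strand; NF-Y matches overlap at 1 place in Fasn (Fasn at chr11:120824548-120824797, minus strand; Elovl5 at chr9:77917115-77917364, plus strand).
Fasn: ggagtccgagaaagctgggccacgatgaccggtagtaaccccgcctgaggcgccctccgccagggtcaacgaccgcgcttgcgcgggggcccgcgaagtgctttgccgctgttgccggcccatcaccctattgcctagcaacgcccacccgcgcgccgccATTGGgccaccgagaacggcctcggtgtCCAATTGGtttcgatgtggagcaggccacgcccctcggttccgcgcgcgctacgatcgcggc
Elovl5: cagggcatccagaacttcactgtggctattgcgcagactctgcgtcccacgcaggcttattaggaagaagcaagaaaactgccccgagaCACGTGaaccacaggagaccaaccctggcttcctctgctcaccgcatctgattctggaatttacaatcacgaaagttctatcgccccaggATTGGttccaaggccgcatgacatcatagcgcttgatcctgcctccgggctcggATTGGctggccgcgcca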

How the data were processed

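Read counts and FPKM values per Ensembl gene were deposited for each of the 4 libraries, per the file headers. Per the submitters' processing notes, the tools were HISAT, StringTie and edgeR (no version or role stated) on mm10 or GRCm38. The annotation release, strand use and treatment of multi-mapped reads: not given in the sources used here. The deposited FPKM equalled the deposited counts divided by 1 length per gene and 1 scale per library for 9004 genes with high counts (largest relative departure 4.6e-09), and was used only to compare levels between genes.

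Counts were tested in R 4.3.3 with edgeR 4.0.16: filterByExpr (minimum count 10), TMM scaling and the quasi-likelihood test of NECA against DMSO, with no replicate block and 2 residual degrees of freedom. Benjamini-Hochberg adjustment covered all 13083 genes, with calls under 0.05. The SE was taken from the log2 fold change and the F statistic (its size over root F), and 95% intervals use the same degrees of freedom as the test. The test pools spread over genes, which adds prior degrees of freedom to the 2 residual ones. The replicates of a single gene can therefore lie further apart than its SE shows. Alternatives were size factors of DESeq2, library size alone, DESeq2 1.42.0, no filter, a replicate block and leaving out each library. The code was tested on simulated data.

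The members and the lists were chosen with earlier results of these data known. All members are named, with called genes and the 3 smallest p-values of each pathway list; others named (among them Dgat1, Pnpla2, Srebf1, Nr1h2, Scd3, Scd4) were chosen after their values were seen. Of 107 listed pathway genes, Hsd17b8 and Faxdc2 matched no gene name. Positions, overlaps and exact shared stretches of at least 50 bases come from GENCODE M21 (GRCm38). Replicate libraries differed by more than sampling noise (chi-square over its degrees of freedom 5.01 for NECA, 6.36 for DMSO).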

Additional observations from a re-analysis of the deposited data

How the results depend on the processing

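Scd2 was called under every alternative with all 4 libraries and without any library but DMSO replicate 1. Leaving out each library in turn, which leaves 1 library in a group and assumes that it varies like the other group, gave log2 fold changes of 0.46 to 0.51 for Scd2, -4.30 to -0.70 for Scd1, -1.63 to -0.61 for Fasn, -1.77 to -1.14 for Fads1, 0.21 to 0.25 for Dgat2, -0.34 to 0.26 for Acaca, -0.0092 to 0.067 for Acly, -0.083 to 0.076 for Elovl1 and -0.057 to 0.12 for Elovl5. Acaca, Acly, Elovl1 and Elovl5 changed sign between fits. Acaca did so without NECA replicate 2 (0.26), without DMSO replicate 1 (0.047) and in DESeq2 (0.00015). Acly did so without NECA replicate 1 (-0.0092) and on library size alone (-0.042). Elovl1 did so without NECA replicate 1 (0.027) and without DMSO replicate 2 (0.076). Elovl5 did so without DMSO replicate 1 (-0.057) and on library size alone (-0.049).

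Leaving out libraries moved the members called from 0 to 2 higher and from 0 to 2 lower, the pathway genes from 0 to 1 higher and from 0 to 5 lower, and all genes from 8 to 227 higher and from 45 to 594 lower, against 46 higher and 128 lower with all libraries. The log2 FPKM ratio differences ran from 1.21 to 4.78 for Scd2 to Scd1, from 0.69 to 3.15 for Fads2 to Fads1 and from 0 to 0.07 for Elovl5 to Elovl1. Library size alone called 21 genes higher and 217 lower (8.82% of its calls higher) and set the median gene at -0.079. DESeq2 called 150 genes higher (53.4% of its calls, against 26.4% with edgeR) and 2 members higher, with Dgat2 at 0.23. With no filter on low counts, 285 genes were higher and 590 lower, among them 2 members higher, 3 members lower and 8 pathway genes lower: Scd1 (-1.55), Fasn (-1.02), Fads1 (-1.5) and Dgat2 (0.23) then passed. The cause of these shifts was not tested. With the replicate number as a block, 123 genes were higher and 298 lower, with 2 members higher, 2 members lower and 4 pathway genes lower: Scd1 (-1.92), Fasn (-1.06) and Dgat2 (0.23) passed, and Scd2 did so too. Same-numbered libraries did not deviate together over all genes (correlation across genes 0.02). With 1 pair of replicates in each group, this cannot show whether same-numbered libraries share an animal, culture or batch. Depth limits Fads1 and Fads2 most, with 58 counts or fewer in each library.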
